A study of Mus musculus with 45 samples.

Results

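Left and right ventricles of the mouse heart at embryonic day 9.5 (E9.5) were compared on 6 of the 45 arrays of a heart development series, 3 arrays from each ventricle. The arrays were chosen by their labels alone, as left or right ventricle at E9.5. All hearts came from wild type CD1 embryos of timed matings, staged by shape and somite count, and neither ventricle carried a transgene or received a treatment. Each of the 6 samples pooled 30 to 50 hearts, whose ventricles had been separated by microdissection, and the replicates were described as biological. The 6 arrays of E12.5, left and right ventricles of the same strain in pools of 10 to 20 hearts, served as the later stage for comparison, and 3 arrays of E8.5 heart tubes (pools of 30 to 50) are given as the preceding level. Values are log2 expression values per gene, so that a difference of 1 is 2-fold, and every difference is left minus right. A positive difference therefore marks a gene with more RNA in the left ventricle, and a negative one a gene with more in the right.

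The heart tube loops at about this stage, and its ventricles differ in origin. Cells of the first heart field form most of the left ventricle, while the right ventricle and the outflow tract are added from the second heart field, a pool of progenitors behind the tube that express Isl1 and are kept growing by FGF and Wnt signals. BMP signals from the outflow region and T-box transcription factors then pattern the chambers, and the outflow end of the right ventricle remains joined to the tract from which its cells arrive. The ventricles at E9.5 are thin tubes of muscle lined with endocardium, with the first trabeculae inside.

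Of 18146 genes measured, 362 were higher in the left ventricle (1.99%) and 273 in the right (1.5%), together 635 (3.5%), at an adjusted p under 0.05 (limma, Benjamini-Hochberg over all genes). The right ventricle held the larger differences. Of the 139 called genes that differed at least 2-fold, 84 were higher in the right and 55 in the left, and past 4-fold there were 16 against 4. The median difference without its sign was 0.104 over all genes and 0.678 over those called, beside a median SD among the 3 arrays of 0.113 in the left and 0.12 in the right ventricle. The 3 left and 3 right arrays did not overlap for 621 of the called genes, and for 3555 of all genes (19.6%). Left-higher calls made up 57.0% of the total. With every array shifted to an equal mean of 11 housekeeping genes the split was 492 against 226 (68.5% left-higher), and the median of all genes was then 0.065 instead of 0.02.

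**Figure D1:**
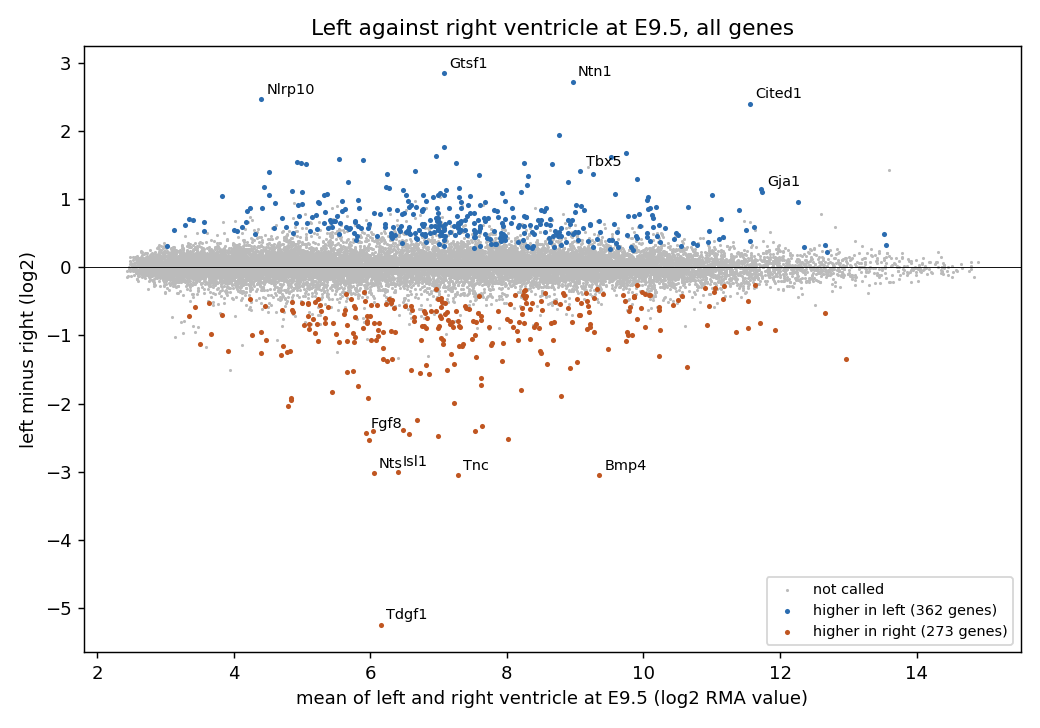
Difference between left and right ventricle at E9.5 (log2, vertical axis) against the mean log2 value of both (horizontal axis), 1 point per gene. Blue points are the 362 genes called higher in the left ventricle and orange points the 273 called higher in the right, and the right-higher genes reach further from 0, with Tdgf1 at -5.24.

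Promoters of 4 genes at the ends of this range show what lies at their starts, from 250 bases before to 50 after the start site, read 5′ to 3′ along the gene (RefSeq, GRCm38.p6). Tdgf1 (chr9:110946109-110946408, minus strand) and Isl1 (chr13:116309639-116309938, minus strand) were higher in the right ventricle, and Gtsf1 (chr15:103430378-103430677, minus strand) and Cited1 (chrX:102252132-102252431, minus strand, the first of 3 listed starts) in the left. Capitals mark matches, on either strand, to one of 4 short strings. A core site of T-box factors was searched as AGGTGT. The site of GATA factors was searched as AGATAA. For NKX2-5 the string was AAGTGG. The core promoter box was searched as TATAAA. No matches overlapped in the windows shown.
Tdgf1: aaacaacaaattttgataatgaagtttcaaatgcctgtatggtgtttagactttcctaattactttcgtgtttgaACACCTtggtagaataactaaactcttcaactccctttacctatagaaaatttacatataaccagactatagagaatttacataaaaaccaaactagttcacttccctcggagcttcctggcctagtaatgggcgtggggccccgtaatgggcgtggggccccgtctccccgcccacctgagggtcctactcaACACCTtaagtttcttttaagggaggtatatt
Isl1: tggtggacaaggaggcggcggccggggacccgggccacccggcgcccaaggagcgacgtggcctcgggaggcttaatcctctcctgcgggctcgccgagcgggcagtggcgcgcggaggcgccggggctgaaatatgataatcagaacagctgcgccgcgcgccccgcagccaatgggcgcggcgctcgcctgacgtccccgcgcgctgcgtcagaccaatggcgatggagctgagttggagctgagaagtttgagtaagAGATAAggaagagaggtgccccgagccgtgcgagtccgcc
Gtsf1: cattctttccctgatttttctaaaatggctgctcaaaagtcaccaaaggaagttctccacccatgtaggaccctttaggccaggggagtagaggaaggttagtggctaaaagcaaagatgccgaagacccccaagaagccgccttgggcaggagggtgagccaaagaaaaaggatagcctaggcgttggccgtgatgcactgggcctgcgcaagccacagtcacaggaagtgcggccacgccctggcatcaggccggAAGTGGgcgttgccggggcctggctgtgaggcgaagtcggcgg
Cited1: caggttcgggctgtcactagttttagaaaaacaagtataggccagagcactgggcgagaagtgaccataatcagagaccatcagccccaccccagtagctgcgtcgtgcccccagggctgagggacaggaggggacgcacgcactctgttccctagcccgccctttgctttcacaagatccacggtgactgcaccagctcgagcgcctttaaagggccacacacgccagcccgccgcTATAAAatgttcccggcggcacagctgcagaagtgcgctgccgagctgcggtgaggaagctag
The Tdgf1 window holds the T-box string at 2 places, both on the opposite strand, the Isl1 window the GATA string, the Gtsf1 window the NKX2-5 string and the Cited1 window the TATA box. Of all 32851 promoters of this length in the table, 13.7%, 11.2%, 16.9% and 13.6% hold the T-box, GATA, NKX2-5 and TATA strings. Among the 15 left-higher genes with the largest differences, 10 matched with 15 promoters, which held them in 3, 1, 4 and 3 cases. The 15 right-higher genes matched in 10 cases with 11 promoters, which held them in 1, 2, 3 and 3. These are matches of letters, not measured binding.

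Among the right-higher genes the largest difference belonged to Tdgf1, which encodes Cripto, a membrane co-receptor of the ligand Nodal. Its values were 3.69, 3.18 and 3.72 in the left arrays and 9.40, 7.99 and 8.94 in the right. The left arrays lay near the lower end of the scale and each right array lay more than 4 log2 units above all of them. The difference was -5.24 (SE 0.43), a 37.9-fold excess in the right ventricle (adjusted p = 4.84e-11), and -5.01 without replicate 1. As RMA compresses differences near background, the fold of such a gene is understated.

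Isl1, the LIM-homeodomain factor that marks second heart field progenitors, stood at 5.23, 4.93 and 4.54 in the left and 8.2, 7.59 and 7.92 in the right arrays. The groups were well apart, with a difference of -3.0 (SE 0.18, 8-fold, adjusted p = 4.52e-14). The growth factor gene Fgf8 was at 4.68, 4.80 and 4.67 in the left and 7.50, 6.91 and 7.03 in the right arrays. All left values were close together, and the difference was -2.43 (SE 0.17, 5.39-fold, adjusted p = 6.47e-13). Fgf10, a related ligand made in the anterior second heart field, read 4.68, 5.07 and 5.28 against 6.85, 6.97 and 6.96, a difference of -1.91 (SE 0.16, adjusted p = 5.31e-11). In both ligand genes the lowest right array exceeded the highest left array by more than 1.5 log2 units.

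Of the 29 measured genes in a list of second heart field and outflow factors, 11 were higher in the right ventricle and 2 in the left, and the list's median was -0.43 against 0.02 over all genes. Without replicate 1 the counts were 10 and 1. Over all genes, 1.5% were right-higher and 1.99% left-higher with 3 arrays a side. Besides Tdgf1, Isl1, Fgf8 and Fgf10, the right-higher members were Hand2, Wnt11, Sema3c, Nrp2, Rgs5, Crabp1 and Crabp2, and the left-higher ones were Foxc1 and Irx2. Sema3c, a guidance ligand of the outflow tract, differed by -1.0 (SE 0.17, adjusted p = 0.000177), and Nrp2, a receptor of class 3 semaphorins, by -1.40 (SE 0.17, adjusted p = 3.24e-07). Crabp1 and Crabp2, which bind retinoic acid inside cells, differed by -2.40 (SE 0.33) and -2.32 (SE 0.31). Right replicate 1 was the highest array for both, at 9.33 for Crabp1 (8.52 and 8.37 in the other right arrays) and 9.73 for Crabp2 (8.06 and 8.58). Crabp1 is also a member of the list of neural tube and neural crest genes. In bulk tissue, more cells of a type and more RNA per cell cannot be told apart. The labels do not say where the right ventricle was cut from the outflow tract.

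Ligands and antagonists of BMP and Wnt signalling were among the right-higher genes. Bmp4, a ligand needed for outflow tract septation, was at 7.74, 7.85 and 7.88 in the left and 10.96, 10.84 and 10.84 in the right arrays. The replicates of each ventricle lay close together, and the difference of -3.05 (SE 0.14, 8.31-fold) had the smallest adjusted p of the genes named here, 4.73e-18. In the list of BMP and TGF-beta pathway genes, 5 of 36 were higher in the right (Bmp4, Bmper, Id1, Id4 and Tgfb2) and 3 in the left (Bmp10, Bmpr1b and Tgfbr3), with a median of -0.10. Without replicate 1 the counts were 2 and 2. The shares over all genes were 1.5% right-higher and 1.99% left-higher with 3 arrays a side. The receptor gene Bmpr1b differed by 1.19 (SE 0.21, adjusted p = 0.000355) and the ligand gene Tgfb2 by -0.92 (SE 0.21, adjusted p = 0.0057).

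Dkk1, a secreted inhibitor of Wnt receptors, was at 4.58, 5.12 and 4.79 in the left and 7.36, 7.16 and 7.2 in the right arrays. Its right arrays agreed closely, and the difference was -2.41 (SE 0.12, 5.3-fold, adjusted p = 2.44e-16). Its relative Dkk2 differed by -1.74 (SE 0.26, adjusted p = 2.24e-05) and Rspo3, an R-spondin that raises Wnt signalling, by -1.89 (SE 0.21, adjusted p = 1.05e-07). The ligand genes Wnt11 and Wnt2 differed by -1.26 (SE 0.18) and -1.43 (SE 0.22). With the receptor gene Fzd1, these made 6 of 34 Wnt pathway genes higher in the right, against Sfrp5 in the left, around a list median of -0.04. Without replicate 1 the counts were 6 and 0. In the FGF list, Fgf8, Fgf10 and the receptor gene Fgfr3 (-0.80, SE 0.13) were higher in the right and Fgf9 (0.50, SE 0.14) in the left, out of 25, and of 19 Notch pathway genes Hey1 (-0.94, SE 0.13, adjusted p = 6.35e-06) was the one called. These counts of the Wnt, FGF and Notch lists stand beside 1.5% right-higher and 1.99% left-higher over all genes.

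The remaining genes with the largest right-higher differences had other roles. Tnc, the matrix glycoprotein tenascin C, was at 5.73, 5.68 and 5.88 in the left and 8.65, 8.90 and 8.87 in the right arrays (difference -3.05, SE 0.23, adjusted p = 8.65e-12). Nts, which encodes the peptide neurotensin, was at 4.41, 4.40 and 4.80 against 7.42, 7.51 and 7.75 (-3.02, SE 0.29, adjusted p = 2.8e-09). For both, all right arrays were above all left arrays and no array stood apart within its ventricle. Masp1, a serine protease of the complement lectin pathway, differed by -2.54 (SE 0.21), the GABA receptor subunit gene Gabra4 by -2.48 (SE 0.20), Tril, a Toll-like receptor accessory protein gene, by -2.44 (SE 0.21), the stathmin gene Stmn2 by -2.39 (SE 0.23) and the pentraxin gene Nptx2 by -2.24 (SE 0.17). Amph, which encodes the endocytic protein amphiphysin, was the most scattered, at 7.42, 5.83 and 7.02 in the left and 8.23, 9.40 and 10.21 in the right arrays (-2.53, SE 0.50, adjusted p = 0.0013).

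The called genes of the valve cushions and the cardiac jelly were all higher in the right ventricle. Of 25 listed, 7 were higher in the right (Has2, Msx2, Tgfb2, Prrx1, Col1a1, Col2a1 and Col9a1) and 0 in the left, around a median of -0.21, and without replicate 1 the counts were 3 and 0. The share over all genes was 1.5% right-higher and 1.99% left-higher. Col1a1 was not called when its probe sets were averaged (-0.43, adjusted p = 0.511). The collagen genes Col9a1 and Col2a1 differed by -1.63 (SE 0.32, adjusted p = 0.0011) and -1.46 (SE 0.30, adjusted p = 0.0015). Prrx1, a mesenchymal homeobox gene, was at 4.86, 4.97 and 5.14 in the left and 6.62, 5.90 and 5.72 in the right arrays, so that right replicate 1 was the highest.

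The left-higher genes were led by Gtsf1, a gene best known from the piRNA pathway of germ cells. It was at 8.63, 8.53 and 8.35 in the left and 5.66, 5.95 and 5.37 in the right arrays. The gap between the ventricles exceeded the spread within each (SD 0.14 in the left and 0.29 in the right), and the difference was 2.84 (SE 0.23, 7.18-fold, adjusted p = 2.45e-11). Ntn1, the secreted guidance cue netrin 1, was at 10.12, 10.50 and 10.36 against 7.32, 7.93 and 7.56 (2.72, SE 0.22, 6.6-fold, adjusted p = 3.33e-11). Nlrp10, of the NLR family, was at 5.46, 5.88 and 5.55 against 3.25, 3.32 and 2.92 (2.47, SE 0.21, adjusted p = 7.4e-11). Cited1, a transcriptional co-activator of early left ventricular muscle, stood at 12.73, 12.80 and 12.75 in the left and 10.04, 10.91 and 10.13 in the right arrays. Its left values barely varied while right replicate 2 was the highest of the right, and the difference was 2.40 (SE 0.19, 5.27-fold, adjusted p = 1.56e-11).

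Further left-higher genes included Tmem163 (1.94, SE 0.24), the kinase gene Map3k8 (1.76, SE 0.17), Retreg1, a receptor for autophagy of the endoplasmic reticulum (1.67, SE 0.16), and Gal, the peptide galanin (1.63, SE 0.20). Genes of muscle stood among them. Mypn, the Z-disc protein myopalladin, was at 6.16, 6.61 and 6.25 in the left and 4.23, 5.19 and 4.84 in the right arrays (1.59, SE 0.22, adjusted p = 5.95e-06), and Ckmt2, the mitochondrial creatine kinase of striated muscle, at 5.51, 6.04 and 5.90 against 4.30, 4.60 and 3.98 (1.52, SE 0.20, adjusted p = 1.91e-06). Both had no overlap between the ventricles. The rest of the 15 largest, between 1.52 and 1.57, were the neuritin gene Nrn1, the lipoxygenase gene Alox8, Clvs1, Prr15 and the lysozyme gene Lyz2. Lyz2 (1.52, SE 0.27, adjusted p = 0.000239) and its near-identical neighbour Lyz1 (1.62, SE 0.42, adjusted p = 0.0207) can share probes, so which of them differed is uncertain. Of a leukocyte and platelet list of 20 genes, Lyz2 and the macrophage receptor gene Mrc1 (1.11, SE 0.21, adjusted p = 0.000515) were the called members, both in the left, beside 1.99% left-higher over all genes.

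**Figure D2:**
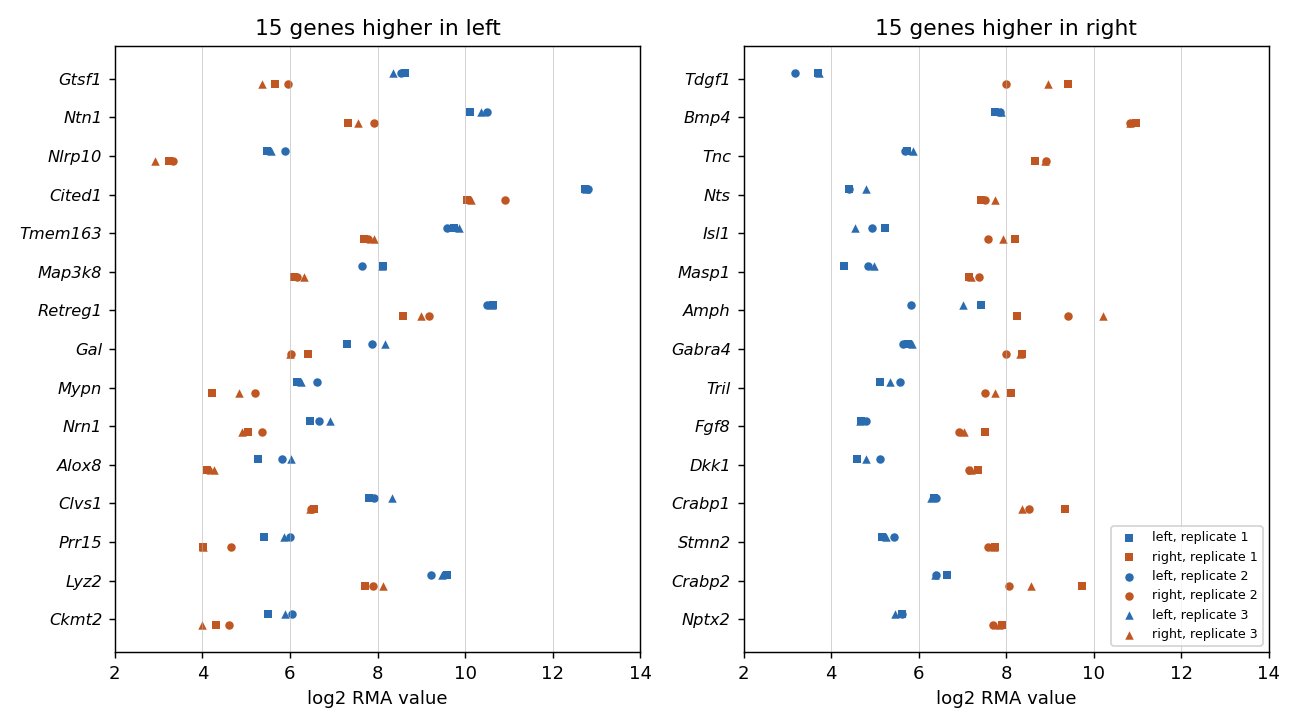
Log2 values of each E9.5 array (horizontal axis) for the 15 left-higher and the 15 right-higher genes with the largest differences that were also called without replicate 1 (1 row per gene). Blue marks are left and orange marks right ventricle, with a different symbol for each replicate, and in every row the colours do not overlap because non-overlap was part of the choice of genes.

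Factors of the left ventricle and first heart field were checked next. Tbx5, the T-box factor of the first heart field, was at 9.94, 9.73 and 9.66 in the left and 8.22, 8.5 and 8.39 in the right arrays. The gap between the ventricles exceeded the spread within each, with a difference of 1.41 (SE 0.13, 2.65-fold, adjusted p = 2.22e-09). Hand1, a basic helix-loop-helix factor of the left ventricle, was at 7.77, 7.41 and 7.76 against 6.88, 7.08 and 6.97 (0.67, SE 0.13, adjusted p = 0.000642), and its adjusted p was 0.06 without replicate 1. Hand2, its counterpart in the right ventricle, was at 10.84, 10.94 and 11.04 against 11.39, 11.45 and 11.38 (-0.47, SE 0.13, adjusted p = 0.0292), and its call was lost without replicate 1 as well (adjusted p = 0.262). Of the 12 genes of this list, Tbx5, Hand1, Cited1, Gja5 and Bmp10 were higher in the left and Cck and Pcsk6 in the right, around a median of 0.63. The shares over all genes were 1.99% left-higher and 1.5% right-higher. Cck, a peptide hormone gene, differed by -0.87 (SE 0.15) and the proprotein convertase gene Pcsk6 by -1.06 (SE 0.17).

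The T-box repressors of chamber muscle genes went in opposite directions. Tbx2 was at 6.08, 6.36 and 6.54 in the left and 6.96, 7.24 and 7.35 in the right arrays (-0.85, SE 0.18), while Tbx3 was at 7.38, 7.54 and 7.65 against 6.67, 6.22 and 6.50 (1.06, SE 0.23), and both had an adjusted p of 0.0031. Both calls were also made without replicate 1 (adjusted p = 0.0356 and 0.0106). Irx5, an Iroquois homeobox gene of the heart, differed by 1.26 (SE 0.19, adjusted p = 1.95e-05). Of the 18 genes in a list of the atrioventricular canal and the atria, Tbx3 and Nr2f2 were higher in the left and Tbx2, Wnt2, Bmp4 and Msx2 in the right. Over all genes, 1.99% were left-higher and 1.5% right-higher.

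All called trabecular genes were higher in the left ventricle, 4 of 13 listed (Bmp10, Gja5, Nrg1 and Cited1) against 0 in the right, with a median of 0.59 and counts of 3 and 0 without replicate 1. Over all genes, 1.99% were left-higher and 1.5% right-higher. Bmp10, a growth factor of trabecular muscle, was at 7.03, 6.98 and 7.02 against 6.18, 6.14 and 6.04 (0.89, SE 0.15, adjusted p = 0.000164). Nrg1, the endocardial ligand neuregulin, differed by 0.69 (SE 0.14, adjusted p = 0.0015). The connexin gene Gja5 differed by 0.87 (SE 0.19, adjusted p = 0.004), with an adjusted p of 0.129 without replicate 1. Gja1, the main gap junction gene of working muscle, was at 12.25, 12.34 and 12.30 against 11.20, 11.39 and 10.96 (1.11, SE 0.10, adjusted p = 3.65e-10).

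Genes of the contractile apparatus were called in both directions. Of 35 sarcomere and Z-disc genes, Tnni3 and Smpx were higher in the left and Tpm2 and Pdlim3 in the right, and the median was 0.08, beside 3.5% of all genes called and a median of 0.02. Tnni3, cardiac troponin I, was at 12.74, 12.71 and 12.79 in the left and 11.66, 11.92 and 11.77 in the right arrays, a difference of 0.96 (SE 0.09, adjusted p = 2.46e-09). Tpm2, beta-tropomyosin, was at 9.73, 9.57 and 9.45 against 10.69, 10.28 and 10.41 (-0.87, SE 0.11, adjusted p = 6.29e-07). In both genes the ventricles did not overlap. Of 20 calcium handling genes, Casq2 (0.80, SE 0.12, adjusted p = 2.79e-05), Trdn, Cacna2d2 and Itpr2 were higher in the left and Fkbp1b in the right, and Casq2 alone of these was called without replicate 1. Cell cycle genes (32 listed), DNA replication genes (32), fatty acid genes (25) and low oxygen response genes (17) had 0 called members each, with medians of 0.05, 0.04, 0.13 and 0.14, beside the 3.5% over all genes. In the electron transport chain 1 of 36 genes was called (Sdhb, 0.22, SE 0.06), and in glycolysis Hk1 and Aldoc were higher in the left and the glucose transporter gene Slc2a3 (-0.88, SE 0.16) in the right, out of 19. Without replicate 1 neither Hk1 (adjusted p = 0.401) nor Aldoc (adjusted p = 0.0743) was called.

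Of 31 measured heart genes named whatever their values, 6 were higher in the left, 9 in the right and 16 not called. They had been chosen with earlier results of these data known, and stand beside 1.99% left-higher and 1.5% right-higher of all genes. Nkx2-5 and Gata4, core factors of heart muscle, had differences of 0.00 (95% interval -0.25 to 0.26) and -0.06 (-0.35 to 0.23), and Tnnt2, cardiac troponin T, one of 0.03 (-0.21 to 0.27). Tbx20 (0.02, -0.29 to 0.33), Hey2 (0.09, -0.21 to 0.40), Myl2 (0.08, -0.05 to 0.22), Pln (-0.00, -0.27 to 0.27) and Myh7 (0.22, -0.24 to 0.68) overlapped between the ventricles. Nppa, atrial natriuretic factor, was at 14.30, 14.39 and 14.25 against 12.71, 13.09 and 12.84. Its arrays did not overlap, but the difference of 1.43 had an interval of 0.44 to 2.42 and an adjusted p of 0.114, where the spread was taken over all stages. In a fit of the 6 arrays of E9.5 alone, Nppa was called (adjusted p = 0.000255), as was Irx4 (adjusted p = 0.0375). Mef2c (-0.23, -0.60 to 0.15), Tbx1 (-0.52, -0.92 to -0.12), Irx4 (0.49, -0.02 to 0.99), Bmp2 (0.37, -0.09 to 0.84), Nppb (0.59, -0.25 to 1.43) and Myh6 (0.39, 0.04 to 0.73) were not called either. For Myl7 (-0.02) the interval of -1.52 to 1.47 set almost no limit.

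RNA of tissues outside the ventricle stood in replicate 1 of both ventricles. Prl8a2, the prolactin-like hormone of the decidua, was at 9.86 and 10.00 in replicate 1 of the left and right ventricle and between 3.97 and 4.85 in the other 4 arrays. The mean of 14 decidua genes lay 0.73 above that of replicates 2 and 3 in left replicate 1 and 0.98 in right replicate 1, and that of 21 yolk sac genes 0.70 and 0.42. A minority of members carried these means. Over 1 log2 unit above were 2 decidua genes in left and 4 in right replicate 1, and 7 and 2 yolk sac genes. Hoxa10, which is in the decidua and the posterior trunk list, was at 3.10 in left and 5.49 in right replicate 1. Right replicate 1 stood apart from left replicate 1 in genes of the posterior trunk, where 23 genes lay 0.80 above the other right arrays on average against -0.03 on the left. In it Hoxc10 was at 6.80 (2.80 to 3.06 elsewhere) and Cdx4 at 5.6 (2.56 to 2.76 elsewhere). Foregut genes (18) lay 0.46 higher in it and 0.02 in left replicate 1. In the same array the means of the trabecular, calcium handling, sarcomere and endothelial lists lay 0.20, 0.28, 0.24 and 0.28 below those of the other right arrays.

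No decidua, trophoblast, yolk sac or red cell gene was called between the ventricles (0 of 14, 18, 21 and 16, beside 3.5% of all genes), and replicate 1 was raised on both sides in genes such as Prl8a2. Of 23 posterior trunk genes 1 was called, Meox1 (-0.96, SE 0.26, adjusted p = 0.0244), which was not called without replicate 1. Among 23 neural tube and neural crest genes, Sox3, Otx2 and Ets1 were higher in the left and Crabp1 in the right. Crabp1 alone of that list was called without replicate 1. Of 26 endothelial genes, Npr3 (1.37, SE 0.19) and Plvap (0.72, SE 0.18) were higher in the left, Npr3 also without replicate 1, and of 18 epicardial genes Sfrp5 (0.89, SE 0.23). The endothelial list had a median of 0.31 (0.21 without replicate 1) and 22 of its 26 genes had a difference above 0, beside a median of 0.02 and 55.5% of all genes. Its mean was 8.47, 8.53 and 8.41 in the left and 7.98, 8.25 and 8.26 in the right arrays. The list mean was thus higher in every left array than in any right array, which does not hold for every member. Cd34 was at 9.16, 9.06 and 9.04 in the left against 9.43, 9.75 and 9.62 in the right arrays (adjusted p = 0.0726). Others, such as Pecam1 and Flt1, overlapped. Npr3, a member of the list, and the endocardial ligand gene Nrg1 were higher in every left array. The 8 markers of ventricular muscle had means of 12.4 to 12.8 in all 6 arrays and 0 called members, which places heart muscle RNA in every array. Most of these markers lay near the top of the scale (Myl2 between 14.68 and 14.86), where a modest change in the share of muscle would hardly show. Irx4, another of them, was called in the fit of the 6 arrays alone, and right replicate 1 lay 0.18 below the other right arrays on the list. The part of the other tissues in the differences between ventricles was not tested beyond leaving out replicate 1.

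**Figure D3:**
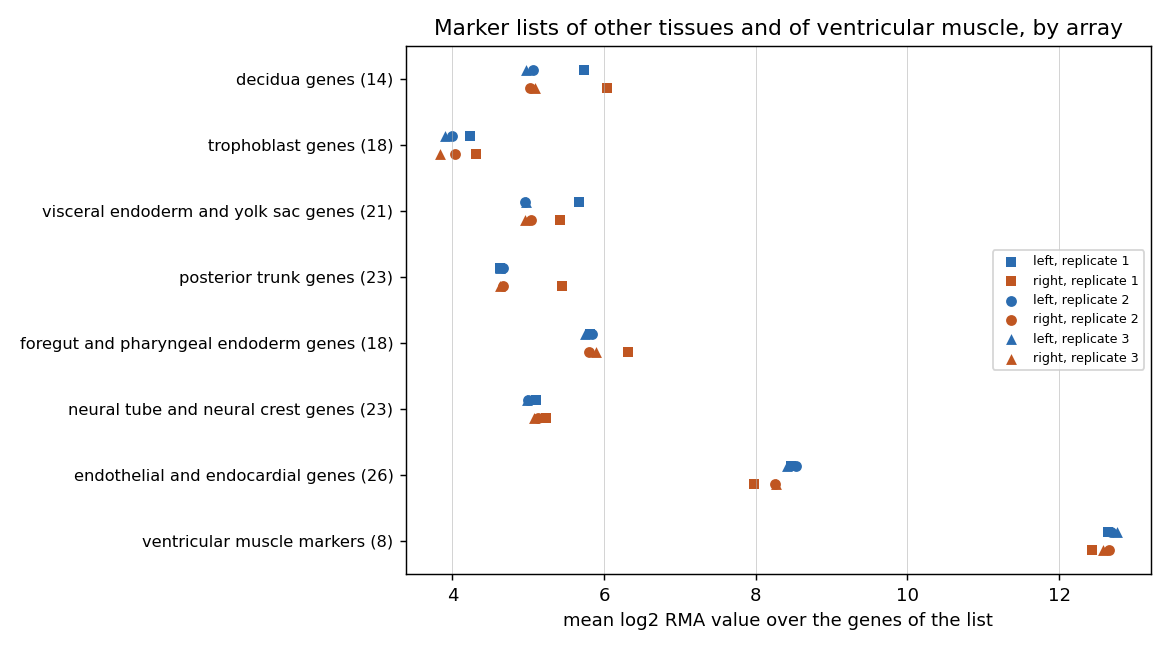
Mean log2 value over the genes of each tissue list (horizontal axis, number of genes in brackets) in each of the 6 arrays. Blue marks are left and orange marks right ventricle, squares are replicate 1, and the squares stand to the right in the decidua, trophoblast and yolk sac lists on both sides and in the posterior trunk and foregut lists for the right ventricle.

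Without replicate 1 of each ventricle, 159 genes were higher in the left (0.876%) and 141 in the right (0.777%), together 300 (1.65%). Of the 635 genes called with 3 arrays a side, 279 (43.9%) were called again, 145 in the left and 134 in the right, and 21 others were added. All 356 genes that lost the call kept the direction of their difference, which the arrays shared by both fits largely fix. Among the 139 genes with at least a 2-fold difference, 120 were called again. The difference shrank by more than 1.5 times in 26 of the 635 called genes, 12 left-higher and 14 right-higher.

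Single arrays decided some of the lost calls. Cyp26a1, an enzyme that degrades retinoic acid, was at 4.0, 4.47 and 4.13 in the left and 6.99, 4.63 and 4.70 in the right arrays, and Fabp7, a fatty acid binding protein of neural progenitors, at 4.21, 4.14 and 4.10 against 6.98, 4.42 and 4.50. In both, right replicate 1 alone stood more than 2 log2 units above the rest. The differences of -1.23 (adjusted p = 0.0145) and -1.15 (adjusted p = 0.0468) became -0.36 (adjusted p = 0.607) and -0.34 (adjusted p = 0.731). The other genes with the largest differences among the lost calls moved less. Col12a1, a fibril-associated collagen gene, went from -1.43 (SE 0.34) to -1.47 (SE 0.42, adjusted p = 0.0729), so that its call was lost with the larger SE. Bmper, a BMP-binding protein gene, went from -1.23 to -1.08, Shisa2 from -1.37 to -1.14 and Spink1 from 1.17 to 1.15. Slit2, a secreted guidance ligand, went from 1.53 to 1.18, the transglutaminase gene Tgm2 from 1.15 to 0.90 and the calcium channel subunit gene Cacna2d2 from 1.06 to 0.88. In all 3 of these right replicate 1 was the lowest array, at 6.91 for Slit2, 10.67 for Tgm2 and 10.09 for Cacna2d2.

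Several calls with smaller differences were lost when arrays were left out or probe sets were averaged. Hand2 was called without left replicate 3 but not without any other single array, with adjusted p between 0.075 and 0.121. In the fits that left out arrays and lost the call, its difference stayed between -0.42 and -0.48, beside -0.47 with all arrays. With its probe sets averaged, the Hand2 difference was -0.27 and was not called (adjusted p = 0.0669). Fgf9 (adjusted p = 0.295), Sdhb (0.465), Plvap (0.235), Sfrp5 (0.168), Meox1 (0.457) and Lyz1 (0.27) lost their calls without replicate 1 of both ventricles, and each also did so without at least 1 single array. Tgfb2 lost its call without both replicates 1 (adjusted p = 0.0733) and kept it without any single array. Pdlim3 was not called without left replicate 2 (adjusted p = 0.083) or right replicate 2 (0.108). Averaging the probe sets of a gene lost 11 of the calls of named genes. Among them were Slc2a3 (adjusted p = 0.106), Col1a1 (0.511), Itpr2 (0.127) and Aldoc (0.453).

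**Figure D4:**
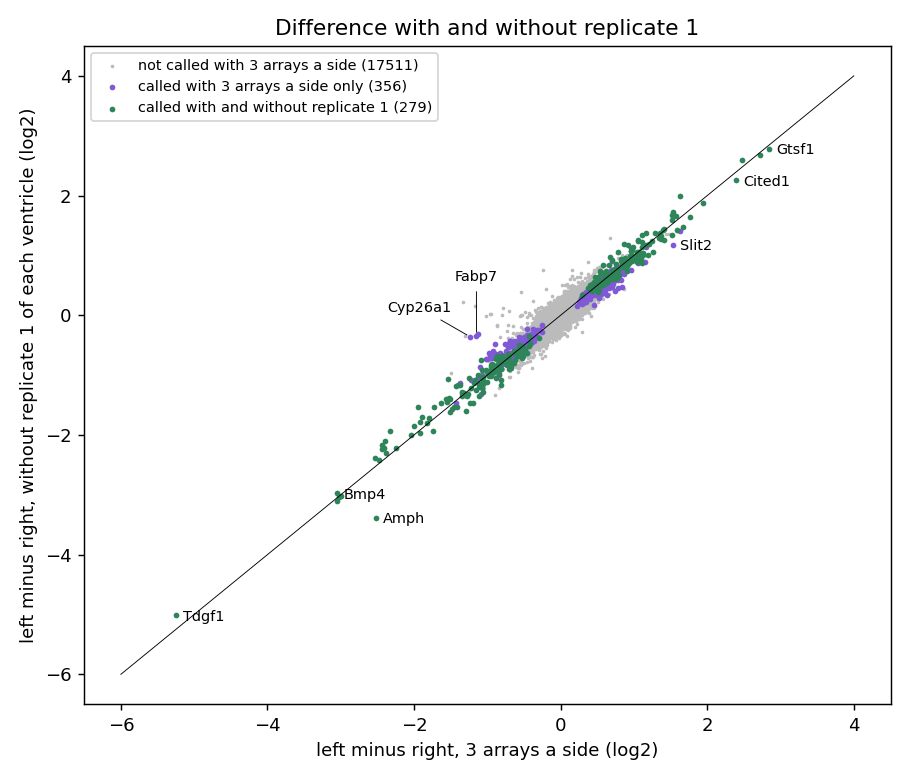
Left minus right difference (log2) with 3 arrays a side (horizontal axis) and without replicate 1 of each ventricle (vertical axis), 1 point per gene, with the line of equal values. Green points are the 279 genes called both ways and purple points the 356 called with 3 arrays a side only, and Cyp26a1 and Fabp7 lie far off the line, at -1.23 and -1.15 against -0.36 and -0.34.

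At E12.5, 230 genes were called between left and right ventricle (1.27%), 63 in the left and 167 in the right. Of the 635 genes called at E9.5, 86 were called in the same direction at E12.5 (29 left, 57 right), 4 in the opposite direction and 545 were not called. Genes called at both stages thus made up 14.2% of the E9.5 calls and 39.1% of the E12.5 calls. The 4 that changed side were Mgarp, higher in the left at E9.5 (0.96) and in the right at E12.5 (-0.58), and Cracdl (-0.85 and 0.79), Rnf182 (-0.51 and 0.57) and Spint2 (-0.79 and 1.09), which were picked out after their values were seen. Over the 635 genes the differences at both stages, measured on separate arrays, had a Pearson correlation of 0.643, and over all genes of 0.356.

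A test of the change in the left-right difference itself from E9.5 to E12.5 called 128 genes (0.705%), of which 94 were also called at E9.5, 46 left-higher and 48 right-higher. Without replicate 1, 67 of the 128 and 49 of the 94 were called again. For 46 left-higher and 46 right-higher genes the E12.5 difference lay on the weaker or opposite side, which the choice of genes called at E9.5 and in this test largely fixes. The others were Rgs5 (-1.80 at E9.5, -2.93 at E12.5), a regulator of G protein signalling in mural cells named after its values were seen, and the Z-disc gene Pdlim3 (-0.55 and -1.35), whose change was not called without replicate 1 (adjusted p = 0.18). In size, the 15 largest right-higher differences went down to 2.24 and the 15 largest left-higher ones to 1.52, so the sets are not alike. Of the right-higher ones 11 were called in this test, against 5 of the left-higher ones, a contrast that was itself not tested. Without replicate 1 these counts were 10 and 3, since Gabra4 (adjusted p = 0.144), Ntn1 (0.153) and Retreg1 (0.18) were not called. At E12.5 7 and 6 of them were called in the same direction as at E9.5.

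Tdgf1 showed the widest change. Its right ventricle mean went from 8.78 ± 0.72 (SD, n = 3) at E9.5 to 3.24 ± 0.07 at E12.5, where the left stood at 3.24 ± 0.10, and the heart tube at E8.5 had been at 9.68 ± 0.01. Fgf8 went from 7.15 ± 0.31 to 4.48 ± 0.20 in the right ventricle, with 4.52 ± 0.29 in the left at E12.5 (change of the difference -2.47, adjusted p = 1.09e-08). Isl1 kept a smaller difference, at 5.92 ± 0.16 in the right and 4.59 ± 0.26 in the left ventricle of E12.5 (-1.34, adjusted p = 1.12e-05; change -1.66, adjusted p = 0.000203). Bmp4 also stayed right-higher, by -0.93 at E12.5 (adjusted p = 3.14e-05), where its left value was 9.0 ± 0.17 and its right value 9.93 ± 0.22, after 7.82 ± 0.07 and 10.88 ± 0.07 at E9.5.

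On the left-higher side, Cited1 stood at 13.52 ± 0.08 in the left and 12.86 ± 0.12 in the right ventricle at E12.5, a difference of 0.65 (adjusted p = 0.0806), and the change of 1.75 from E9.5 was called (adjusted p = 9.58e-05). Gtsf1 kept its difference, at 12.82 ± 0.10 against 10.43 ± 0.11 (2.39, adjusted p = 8.06e-09), and its change of 0.46 was not called (adjusted p = 0.943). Tbx5 was still left-higher, by 0.86 (adjusted p = 9.05e-05), with 9.41 ± 0.11 against 8.55 ± 0.14. Tnni3 had a difference of 0.27 at E12.5 (adjusted p = 0.247), and the change of 0.70 was called (adjusted p = 0.0028). For Gja1 the E12.5 difference was 0.29 and the change of 0.82 was called (adjusted p = 0.000764). Bmp2, a ligand of the atrioventricular canal that was not called at E9.5 (0.37), was right-higher at E12.5 (-1.39, adjusted p = 0.000217), a change of 1.76 (adjusted p = 0.0022).

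**Figure D5:**
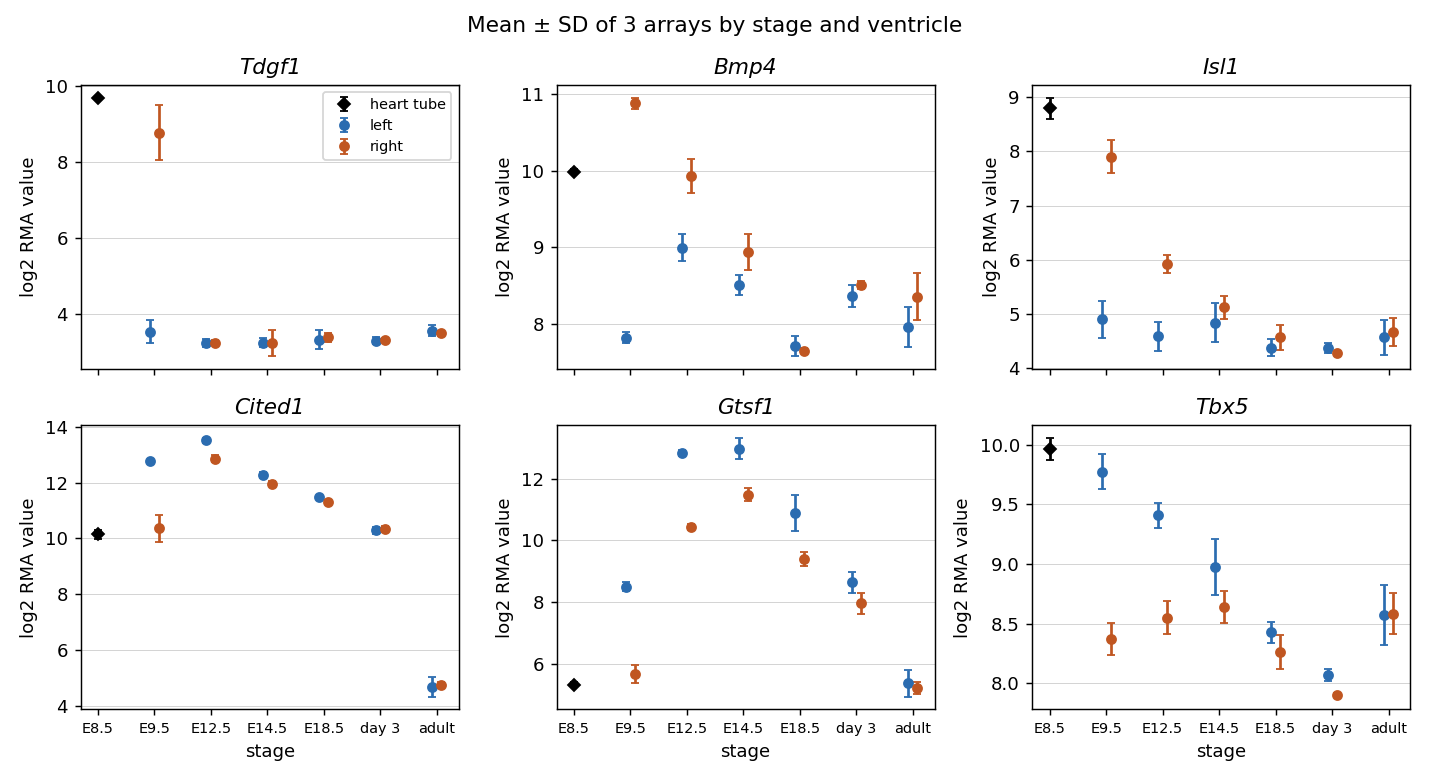
Mean ± SD of 3 arrays (log2 value, vertical axis) by stage from the E8.5 heart tube (black) to the adult ventricles, left in blue and right in orange, for 6 genes each on an axis of its own range. Tdgf1 is at 9.68 in the heart tube, 8.78 in the right ventricle of E9.5 and near 3 in the left and at every later stage, while Gtsf1 and Tbx5 stay higher in the left at E12.5.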

How the data were processed

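Of 45 Affymetrix arrays in 15 labelled groups of 3, the 6 of E9.5 were compared. Biotin-labelled cRNA was made from 100 ng of RNA, per the labels' protocols. The deposited log2 values were produced by the authors with RMA, per the submitters' processing notes. Its version is not given in the sources used here. RMA's quantile step removes a change shared by most genes. The E9.5 arrays had medians of 5.353 to 5.407, 0 pairs of arrays were identical, and the number of arrays limits the precision.

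Of 45101 probe sets (64 controls), the platform annotation gave 1 symbol for 34958, several for 932 and none or no entry for 9211. Names of 34885 were found in RefSeq, giving 18146 genes. Where a gene had several probe sets (8998 genes), the one brightest on average was taken. Kdm2a (0.40, SE 0.11) was the 1 called gene with probe sets called in opposite directions, and is uncertain.

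Every array entered a limma 3.58.1 fit (R 4.3.3; group means, eBayes, 30 residual degrees of freedom). Two-sided contrasts were left minus right at E9.5, at E12.5, and their difference, adjusted over all genes (Benjamini-Hochberg) and called under 0.05. The SE and intervals use one spread per gene pooled across stages. Plots used Matplotlib 3.10.9. The code was tested on simulated data.

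The comparison, the 41 gene lists (719 genes matched, 50 not) and the fixed genes were chosen with earlier results of these data known. Named genes were the 15 largest differences per direction among non-overlapping calls also made without replicate 1, the 5 largest per direction called only with it, 31 fixed genes, the 4 largest called members of each list described, and the 6 largest changes per direction between E9.5 and E12.5. Predicted and clone names, ambiguous probe sets and olfactory or vomeronasal receptor genes were skipped. Other list members are named without values unless stated.

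Alternatives left out replicate 1 or single arrays, fitted the compared arrays alone, added a replicate block, used a trended robust variance, kept genes over 5.413 (the median value) in 3 or more compared arrays, averaged probe sets, adjusted over all probe sets, scaled to housekeeping genes, or used stricter thresholds.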

Additional observations from a re-analysis of the deposited data

Results flagged for a closer look

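The left-right difference at E9.5 differed from that at E12.5, by the test of the change itself, in 12 genes named for the size of that change (E9.5 difference minus E12.5 difference, log2, limma with adjustment over all genes). On the left-higher side these were the transcription factor gene Tcf24 with 2.1 (SE 0.41, adjusted p = 0.004), Cited1 with 1.75, Tbx3 with 1.54, Mgarp with 1.54, Gal with 1.46 and Cacna2d2 with 1.44. The right-higher genes were Tdgf1 with -5.24 (SE 0.61, adjusted p = 8.65e-07), Fgf8 with -2.47, Dkk1 with -2.45, Nptx2 with -2.35, Tril with -2.24 and Bmp4 with -2.12. Without replicate 1 of each ventricle the change was called in 11 of the 12, and that of Cacna2d2 was not (1.27, adjusted p = 0.135).

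Tcf24 was at 5.36, 5.20 and 4.60 in the left and 4.21, 3.87 and 3.91 in the right arrays of E9.5 (1.05, adjusted p = 0.03), a call that was lost without replicate 1 (1.01, adjusted p = 0.213), and its difference at E12.5 was -1.04 (adjusted p = 0.0681). Tbx3 had an E12.5 difference of -0.48 (adjusted p = 0.579), with 5.97 ± 0.15 in the left and 6.45 ± 0.30 in the right ventricle. For Dkk1 and Nptx2 the E12.5 differences were 0.04 and 0.11, and for Tril -0.20, none of them called.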

How the results depend on the processing

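The number of genes called depended on the arrays and the threshold. Without replicate 1 of each ventricle it was 159 higher in left, 141 higher in right and 74 with a change between stages, against 362, 273 and 128. Leaving out 1 array at a time gave 175 to 439 left-higher, 182 to 304 right-higher and 79 to 130 changed genes. The left-higher count moved by over 1.5 times without left replicate 2 (212), left replicate 3 (225), right replicate 1 (175) and right replicate 3 (241), and the changed genes without left replicate 2 (85) and right replicate 1 (79). At an adjusted p under 0.01 the counts were 179, 162 and 64, and with at least a 2-fold difference 55, 84 and 82. On the 12 arrays of both stages alone, 250 genes changed. The other settings kept each count within 1.5 times, and no named gene that was called reversed its direction in any setting. Same-numbered ventricles at E9.5 deviated together with correlations of 0.256, 0.317 and 0.072 over all genes. Over genes above the median value these were 0.325, 0.522 and 0.015, and -0.419 to 0.094 between different numbers. As the third was below 0.1, the numbers were not taken as pairs in the main fit, although the first and second deviated together. A replicate block, which lets same-numbered ventricles share a shift, gave 328, 279 and 114. Signal over background limits the dim genes, such as Tdgf1 in the left ventricle, where a fold is a lower estimate.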

Other observations

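The E8.5 heart tube gives a reference for both ventricles. Its mean was nearer to the right than to the left ventricle for 241 of the 362 left-higher genes (66.6%) and for 168 of the 273 right-higher genes (61.5%), beside 8944 of all 18146 genes (49.3%). Of the 15 largest right-higher genes, 14 had a heart tube mean above their highest left array at E9.5. The exception was Nts, at 4.34 in the heart tube. Of the 15 largest left-higher genes, 13 had a heart tube mean below their lowest left array, among them Gtsf1 at 5.33, Nlrp10 at 3.35 and Cited1 at 10.14, and Gal, at 9.20, lay above its highest left array. As the 2 sets of 15 were chosen for low or for high left arrays, that choice favours such positions, and no share over all genes was taken. By the nearer mean, the heart tube was closer to the right ventricle for 12 of the 15 right-higher and 9 of the 15 left-higher genes. The heart tubes also hold other parts of the heart and were not tested against the ventricles here.

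Immediate early genes, which can respond to dissection, were called in both directions, 1 of 22 in the left and 3 in the right. The shares over all genes were 1.99% and 1.5%. Egr1 was left-higher (1.2, SE 0.19, adjusted p = 7.83e-05), and Klf4 (-1.06, SE 0.11, adjusted p = 2.32e-08), Ccn1 (-0.59, SE 0.13) and Dusp1 (-0.44, SE 0.11) were right-higher. Without replicate 1, Dusp1 was not called (adjusted p = 0.116), nor was Ccn1 without left replicate 3 (adjusted p = 0.115). Of 29 Hox and Meis genes, 9 lay over 1 log2 unit above the other right arrays in right replicate 1 and 0 did so in left replicate 1, and Meis2 was the called member (-0.60, SE 0.15, adjusted p = 0.0166, and 0.0964 without replicate 1). Among 26 guidance genes, Slit2, Epha3 and Epha4 were left-higher and Sema3c, Nrp2 and Efna5 right-higher, beside 3.5% of all genes. Without replicate 1 none of the 3 left-higher genes was called (Slit2 adjusted p = 0.284, Epha3 0.257, Epha4 0.243), and of the right-higher ones Efna5 was not (0.0538). The ventricles overlapped for Epha3.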
